A study of Mus musculus with 12 samples.

Results

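The annexin genes of BV2 cells and the S100 genes whose products bind annexins were followed through a knockdown of Anxa2, to ask whether another annexin or the partner of annexin A2 was higher where Anxa2 was lower. The members were 10 of the 21834 genes in the deposited count table, chosen by gene symbol: the 8 annexins Anxa1, Anxa2, Anxa3, Anxa4, Anxa5, Anxa6, Anxa7 and Anxa11, and the 2 S100 genes S100a10 and S100a11. All 10 were above the limit on low counts and were tested, and none was at 0 in any library.

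BV2 is an immortalised mouse microglial cell line. It carried either a control hairpin (shCtrl) or a hairpin against Anxa2 (shAnxa2), each delivered by lentivirus from a pLKO.1 vector into cells that were then selected with puromycin and grown on in standard medium, and it was either left untreated (CTRL) or deprived of oxygen and glucose and then returned to normal medium (OGD/R, written OGDR in the group names). Deprivation lasted 4 h and reoxygenation 12 h by the labels, while a longer reoxygenation stands in the study's methods. The 4 groups, shCtrl-CTRL, shCtrl-OGDR, shAnxa2-CTRL and shAnxa2-OGDR, held 3 RNA-seq libraries each, 12 in all. Each hairpin was present in 1 stable line, so a difference between the lines holds the effect of the hairpin together with anything else in which these lines differ, and p-values measure only the spread between these libraries.

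Annexins bind membranes that hold negatively charged phospholipids when calcium rises, and they act in membrane repair, vesicle traffic and the handling of dying cells. Annexin A2 forms a heterotetramer with a dimer of S100A10 (p11), which links it to the cytoskeleton and to plasminogen activation at the cell surface, and free S100A10 protein is known to be degraded in cells that lack annexin A2, a step that RNA counts do not measure. Annexin A1 pairs in a similar way with S100A11, and in microglia and other phagocytes it is known as a ligand of formyl peptide receptors.

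The stretch that the study's drawing marks as the target of the hairpin is shown first, to describe how closely the other members match it over its full length. The sequence of the hairpin itself was not used here. The stretch was found as the 21 bases that encode the marked residues, in 4 of the 6 Anxa2 transcripts of the GENCODE annotation of GRCm38, and it lies in the coding part of exon 8 of 13, on the plus strand at chr9:69485222-69485242. Beside it stand the windows of equal length that are closest to it in the transcripts of the 2 annexins with the fewest mismatches, the 2 annexins that are described below as higher in untreated shAnxa2 cells by the largest factors, and S100a10. Capitals mark bases that differ from the Anxa2 stretch.
Anxa2: gttattgactacgagctgatt
Anxa5: AAtattgTctaTgaATtgCtt
Anxa7: gtAaAtCactacTTgAtTatt
Anxa4: ACCattgGcAGGgaCctgatt
Anxa6: CtAaCGgGctTcgagctgCGt
S100a10: gCCatGgaAACcATgAtgCtt

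No other member held the stretch. The closest windows had 7 mismatches in Anxa5 and Anxa7, 8 in Anxa1, Anxa3, Anxa4, Anxa6 and Anxa11, 9 in S100a11 and 10 in S100a10. Matches to shorter parts of the stretch were not searched, so these totals do not tell which members the hairpin could pair with. Whether the hairpin acted on any of these transcripts was not tested.

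Library totals ran from 19521877 to 27288843 counts. The labels contradict each other on the line: the titles name hairpin and treatment, whereas another label calls the OGD/R libraries of both lines Anxa2 knockdown and the untreated libraries of both lines wild type. Groups were taken from the titles, and Anxa2 itself was low in the 6 libraries titled shAnxa2. That level bears on the hairpin named in the titles and not on the treatment. Over all genes tested, the shAnxa2-OGDR libraries lay closest to shCtrl-CTRL (root mean square distance 0.416 in log2 CPM, counts scaled to a common library size) and the shAnxa2-CTRL libraries closest to shCtrl-OGDR (0.453), while the lines lay 0.562 apart untreated and 0.673 apart after OGD/R, and libraries of 1 group 0.252 to 0.28 apart. This arrangement, in which the treatment pattern of the shAnxa2 line is turned against that of the shCtrl line, touches each comparison below, and whether it comes from the hairpin, the cultures or the labelling was not tested. The 12 microglial marker genes were all detected, and summed to 1460 to 1862 CPM per library, highest in shCtrl-CTRL and lowest in shAnxa2-CTRL, whereas the markers of oligodendrocytes summed to 4.01 to 6.61 CPM, those of endothelium to 0.461 to 2.06 CPM, and those of astrocytes, neurons and fibroblasts to under 1 CPM, with Aqp4, Snap25, Syt1, Mog and Dcn at 0 in every library.

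In plain terms, the data showed the following. Anxa2 RNA was low in the knockdown line and lowest there after OGD/R. In untreated cells, Anxa4, Anxa6, Anxa3 and, by a small margin, Anxa7 were higher in the shAnxa2 line than in the shCtrl line, while S100a10 and S100a11 were lower. After OGD/R, Anxa1, Anxa3, Anxa4, Anxa5, Anxa6 and S100a11 were lower in the shAnxa2 line together with Anxa2, and only Anxa7 among the members was higher, so that Anxa3, Anxa4 and Anxa6 went from higher to lower. Anxa11 did not differ beyond its spread in any comparison.

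**Figure D1:**
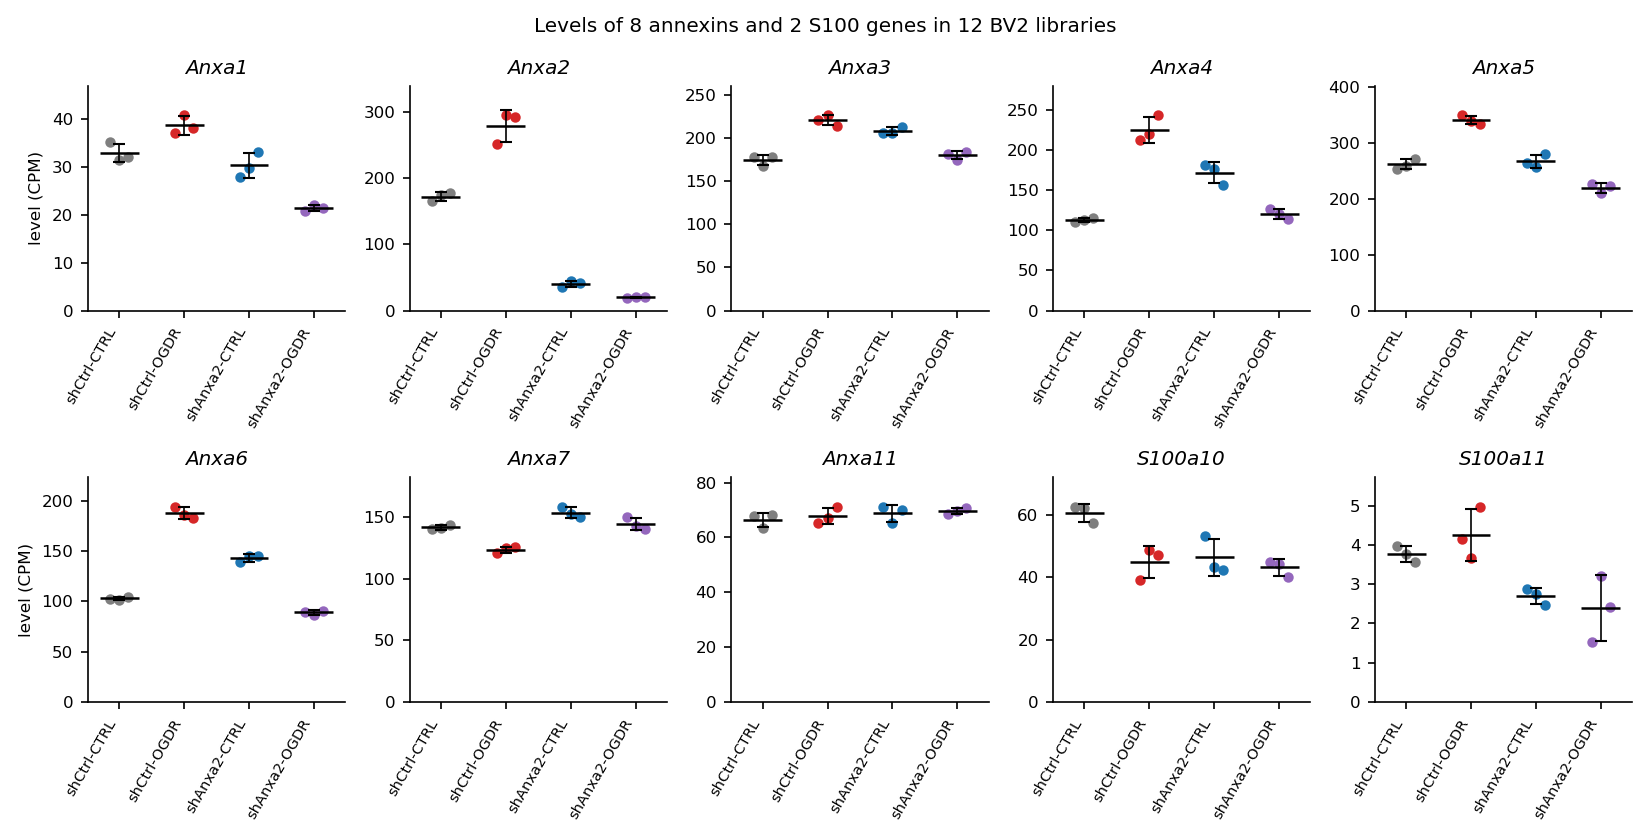
Level in CPM (vertical axis, from 0, own scale per gene) of the 10 members in each of the 12 libraries (points) of the 4 groups, with the mean (horizontal line) and SD (bars, n = 3). Anxa2 lies between 18.2 and 44.4 CPM in the shAnxa2 libraries and between 164.5 and 295 CPM in the shCtrl libraries, and Anxa11 stays between 63.6 and 71.2 CPM in all 12.

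Anxa2 (ENSMUSG00000032231), the targeted gene, lies on the plus strand at chr9:69360902-69399077 of mm39. Its level was 164.5, 174 and 177 CPM in shCtrl-CTRL, 251, 295 and 291 CPM in shCtrl-OGDR, 35.0, 44.4 and 41.8 CPM in shAnxa2-CTRL, and 18.2, 20.1 and 20.6 CPM in shAnxa2-OGDR. No groups overlapped, and the order was shCtrl-OGDR, shCtrl-CTRL, shAnxa2-CTRL, shAnxa2-OGDR, each step being called. The level in the shAnxa2 line was 23.5% of that in the shCtrl line without treatment (log2 fold change -2.09 ± 0.07 (SE), edgeR adjusted p = 3.96e-17) and 7.05% after OGD/R (-3.83 ± 0.08, edgeR adjusted p = 1.13e-21). OGD/R raised Anxa2 1.62-fold in the shCtrl line (log2 fold change 0.70 ± 0.06, edgeR adjusted p = 1.21e-09). In the shAnxa2 line it was, by the titles, at 48.7% of its untreated level after OGD/R (log2 fold change -1.04 ± 0.08, edgeR adjusted p = 3.05e-10). By these titles the remaining Anxa2 RNA moved in the opposite direction to that in the control line (difference of the 2 changes -1.74 ± 0.10, edgeR adjusted p = 3.35e-13). Whether the treatment titles of the shAnxa2 line hold was not tested. In bulk RNA, fewer cells with Anxa2 RNA and less of it per cell cannot be told apart.

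S100a10 (ENSMUSG00000041959, chr3:93462387-93471950, plus strand) encodes p11, the partner of annexin A2 in the heterotetramer. Its level was 62.5, 62.1 and 57.2 CPM in shCtrl-CTRL, 39.0, 48.6 and 47.2 CPM in shCtrl-OGDR, 53.2, 43.4 and 42.4 CPM in shAnxa2-CTRL, and 45.0, 44.2 and 40.2 CPM in shAnxa2-OGDR. The untreated control libraries lay above all 9 others, and the other 3 groups overlapped. Without treatment, S100a10 was at 76.3% of the control level in the shAnxa2 line (log2 fold change -0.39 ± 0.08, edgeR adjusted p = 0.000244), and after OGD/R the lines did not differ beyond their spread (-0.06 ± 0.08, 95% confidence interval -0.23 to 0.12, edgeR adjusted p = 0.564). OGD/R lowered S100a10 to 74.0% in the shCtrl line (log2 fold change -0.43 ± 0.08, edgeR adjusted p = 5.98e-05), opposite to Anxa2, and the change in the shAnxa2 line missed the threshold (-0.10 ± 0.08, interval -0.27 to 0.07, edgeR adjusted p = 0.325). The changes of the 2 lines differed by 0.33 ± 0.12 (edgeR adjusted p = 0.0145). Without the first shCtrl-OGDR library, which had the lowest level in its group, this difference was 0.22 and was no longer called (edgeR adjusted p = 0.0802).

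Levels of different genes were set side by side per kilobase of exon, with exons joined over all annotated transcripts of a gene. On this scale Anxa2 stood at 0.922 ± 0.075 (SD, n = 3) of S100a10 in shCtrl-CTRL, 2.02 ± 0.06 in shCtrl-OGDR, 0.289 ± 0.065 in shAnxa2-CTRL and 0.149 ± 0.018 in shAnxa2-OGDR. On these lengths the RNA of the 2 partners was at near equal levels in untreated control cells, with Anxa2 higher after OGD/R and S100a10 higher in the knockdown line. These ratios are a description of RNA, with no test, and rest on joined exon lengths of GRCm38, 3.731 kb for Anxa2 and 1.212 kb for S100a10. The length of the transcripts present was not measured, and another fixed length would rescale the ratio alike in all 4 groups.

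**Figure D2:**
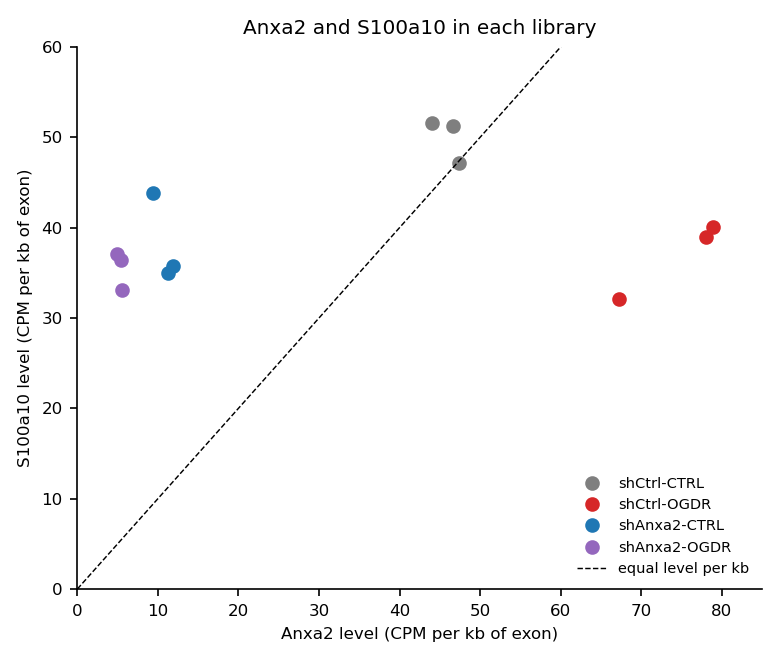
Level of S100a10 (vertical axis) against that of Anxa2 (horizontal axis), both in CPM per kb of exon, in each of the 12 libraries, coloured by group, with a dashed line of equal level. The shCtrl-OGDR libraries lie to the right, at 67.2 to 79.0 for Anxa2, the shAnxa2 libraries lie at the left under 12 for Anxa2, and S100a10 stays between 32.1 and 51.6 in all 12.

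S100a11 (ENSMUSG00000027907, chr3:93427795-93433594, plus strand), next to S100a10 on chromosome 3, encodes the S100 partner of annexin A1 and was the least abundant member, with 30 to 106 counts per library. Its level was 3.97, 3.77 and 3.57 CPM in shCtrl-CTRL, 4.15, 3.67 and 4.97 CPM in shCtrl-OGDR, 2.885, 2.74 and 2.46 CPM in shAnxa2-CTRL, and 1.53, 3.22 and 2.42 CPM in shAnxa2-OGDR. All shAnxa2 libraries lay below all shCtrl libraries, and the treated and untreated groups of each line overlapped. S100a11 was lower in the shAnxa2 line without treatment (log2 fold change -0.49 ± 0.20, edgeR adjusted p = 0.037) and after OGD/R (-0.79 ± 0.20, edgeR adjusted p = 0.00123). The first of these calls was lost when any 1 of 5 of the 6 untreated libraries was left out (edgeR adjusted p 0.0503 to 0.119), and the second was kept under each alternative tried but the added limit of 1 on the log2 fold change. Of the 50-base windows of its transcript, 41.1% also occur in the processed pseudogene Gm12854, so reads of the gene and of this copy could be exchanged in counting.

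Anxa1 (ENSMUSG00000024659, chr19:20350792-20368308, minus strand), the ligand of formyl peptide receptors, was at 35.2, 31.6 and 32.1 CPM in shCtrl-CTRL, 37.0, 40.9 and 38.3 CPM in shCtrl-OGDR, 27.9, 29.9 and 33.2 CPM in shAnxa2-CTRL, and 20.7, 22.0 and 21.4 CPM in shAnxa2-OGDR. The untreated lines overlapped, and the shAnxa2-OGDR libraries lay below all others. The untreated lines did not differ beyond their spread (log2 fold change -0.12 ± 0.07, interval -0.27 to 0.03, edgeR adjusted p = 0.176), although a lower level was called when the third shAnxa2-CTRL library was left out (-0.19, edgeR adjusted p = 0.0434). After OGD/R Anxa1 was at 55.3% of the control level in the shAnxa2 line (log2 fold change -0.86 ± 0.07, edgeR adjusted p = 3.7e-10). It rose 1.18-fold after OGD/R in the shCtrl line (0.23 ± 0.07 in log2, edgeR adjusted p = 0.00613) and fell to 70.4% in the shAnxa2 line (-0.51 ± 0.08, edgeR adjusted p = 5.34e-06).

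Anxa5 (ENSMUSG00000027712, chr3:36503072-36530043, minus strand) encodes the phosphatidylserine-binding annexin that is used as a probe of dying cells. It was at 254, 259.0 and 271 CPM in shCtrl-CTRL, 349, 339 and 334 CPM in shCtrl-OGDR, 264, 256 and 279.7 CPM in shAnxa2-CTRL, and 226, 209.6 and 222 CPM in shAnxa2-OGDR. The untreated lines overlapped, shCtrl-OGDR lay above and shAnxa2-OGDR below every other library. The untreated lines differed by 0.03 ± 0.05 in log2 (interval -0.07 to 0.13, edgeR adjusted p = 0.619), and after OGD/R Anxa5 was at 64.3% of the control level in the shAnxa2 line (-0.64 ± 0.05, edgeR adjusted p = 3.9e-11). OGD/R raised it 1.30-fold in the shCtrl line (0.38 ± 0.05, edgeR adjusted p = 2.65e-07). By the titles it was at 82.2% of its untreated level after OGD/R in the shAnxa2 line (-0.28 ± 0.05, edgeR adjusted p = 3.21e-05).

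Anxa6 (ENSMUSG00000018340, chr11:54869934-54924271, minus strand) encodes the annexin whose membrane-binding core is repeated, which acts in membrane repair and cholesterol traffic. It was at 103, 101 and 104 CPM in shCtrl-CTRL, 194, 186 and 182.5 CPM in shCtrl-OGDR, 139, 145 and 145 CPM in shAnxa2-CTRL, and 89.7, 86.4 and 90.9 CPM in shAnxa2-OGDR. No groups overlapped, and each step of the order shCtrl-OGDR, shAnxa2-CTRL, shCtrl-CTRL, shAnxa2-OGDR was called. Anxa6 was 1.39-fold higher in untreated shAnxa2 cells than in untreated shCtrl cells (0.48 ± 0.04 in log2, edgeR adjusted p = 2.41e-09) and at 47.4% of the control level after OGD/R (-1.08 ± 0.05, edgeR adjusted p = 7.02e-16). It rose 1.82-fold with OGD/R in the shCtrl line (0.87 ± 0.04, edgeR adjusted p = 4e-14) and fell to 62.1% in the shAnxa2 line (-0.69 ± 0.05, edgeR adjusted p = 1.32e-11).

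Anxa4 (ENSMUSG00000029994, chr6:86713822-86770566, minus strand), an annexin best known from epithelia that binds and aggregates membranes, was at 111, 113 and 115 CPM in shCtrl-CTRL, 213, 221 and 244 CPM in shCtrl-OGDR, 182, 177 and 157 CPM in shAnxa2-CTRL, and 127, 120.3 and 115 CPM in shAnxa2-OGDR. The shAnxa2-OGDR libraries overlapped those of shCtrl-CTRL (edgeR adjusted p = 0.22), and the other groups were separate. Anxa4 was 1.52-fold higher in the untreated shAnxa2 line (0.60 ± 0.06 in log2, edgeR adjusted p = 4.17e-09), the largest increase among the members in that comparison, and at 53.4% of the control level after OGD/R (-0.90 ± 0.06, edgeR adjusted p = 1.51e-12). OGD/R brought it to 199.6% of its untreated level in the shCtrl line (a log2 change of 0.997 ± 0.058, edgeR adjusted p = 4.15e-13). By the titles it was at 70.2% of its untreated level after OGD/R in the shAnxa2 line (-0.51 ± 0.06, edgeR adjusted p = 9.78e-08).

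Anxa3 (ENSMUSG00000029484, chr5:96941198-96993825, plus strand), an annexin that is abundant in myeloid cells, was at 178, 168 and 178 CPM in shCtrl-CTRL, 222, 226.5 and 215 CPM in shCtrl-OGDR, 206, 205 and 213 CPM in shAnxa2-CTRL, and 181, 175 and 184 CPM in shAnxa2-OGDR. The order of the groups was that of Anxa4, with smaller steps: shCtrl-OGDR and shAnxa2-CTRL did not differ by the test (edgeR adjusted p = 0.133) and shAnxa2-OGDR overlapped shCtrl-CTRL (edgeR adjusted p = 0.48). Anxa3 was 1.19-fold higher in the untreated shAnxa2 line (0.25 ± 0.05 in log2, edgeR adjusted p = 4.13e-05) and at 81.4% of the control level after OGD/R (-0.30 ± 0.05, edgeR adjusted p = 3.76e-06). Its changes after OGD/R were 0.34 ± 0.05 in the shCtrl line (edgeR adjusted p = 5.83e-07) and -0.21 ± 0.05 in the shAnxa2 line (edgeR adjusted p = 0.000414).

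Anxa7 (ENSMUSG00000021814, chr14:20505328-20530201, minus strand) and Anxa11 (ENSMUSG00000021866, chr14:25842580-25887228, plus strand), both on chromosome 14, encode the annexins with long N-terminal regions. Annexin A7, or synexin, is known for the fusion of secretory granules, and annexin A11 ties RNA granules to lysosomes. Anxa7 was at 140.0, 141.5 and 144 CPM in shCtrl-CTRL, 120.5, 125 and 125 CPM in shCtrl-OGDR, 158, 152 and 149.7 CPM in shAnxa2-CTRL, and 149.7, 143 and 140.0 CPM in shAnxa2-OGDR. The shCtrl-OGDR libraries lay below all others, so that the direction of Anxa7 after OGD/R in the control line was opposite to that of Anxa1 to Anxa6. Anxa7 was 1.08-fold higher in the untreated shAnxa2 line (0.11 ± 0.04 in log2, edgeR adjusted p = 0.0307), a call that was lost without the first or second shCtrl-CTRL library or the first shAnxa2-CTRL library (edgeR adjusted p 0.0512 to 0.118), and 1.17-fold higher after OGD/R (0.22 ± 0.04, edgeR adjusted p = 0.000109). OGD/R lowered it to 87.1% in the shCtrl line (-0.20 ± 0.04, edgeR adjusted p = 0.000418), while the change in the shAnxa2 line was -0.09 ± 0.04 (interval -0.18 to 0.00, edgeR adjusted p = 0.0941) and the changes of the lines differed by 0.11 ± 0.06 (edgeR adjusted p = 0.123).

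Anxa11 was at 67.7, 63.6 and 68.1 CPM in shCtrl-CTRL, 65.4, 67.2 and 71.1 CPM in shCtrl-OGDR, 71.2, 65.4 and 70.1 CPM in shAnxa2-CTRL, and 68.5, 69.5 and 70.8 CPM in shAnxa2-OGDR. All 4 groups overlapped. The lines differed by 0.05 ± 0.05 in log2 without treatment (interval -0.06 to 0.16, edgeR adjusted p = 0.413) and by 0.04 ± 0.05 after OGD/R (interval -0.07 to 0.15, edgeR adjusted p = 0.551). These intervals leave out a difference of the size seen for Anxa4 or Anxa6 in the untreated lines. Of the 50-base windows of its transcripts, 16.2% occur in another gene, chiefly the pseudogene Gm2260, and 113 of its exon bases lie opposite the antisense gene Anxa11os, with no statement on counting by strand in the sources used here. The same holds for 98 exon bases of Anxa2 opposite Gm16144 and 75 of Anxa4 opposite Gm44036.

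The comparison of the untreated lines asked whether a lower Anxa2 came with more of another member. Higher levels were called for 4 of the 10 members (Anxa3, Anxa4, Anxa6 and Anxa7), against 29.5% of the 11626 genes tested, and lower levels for 3 (Anxa2, S100a10 and S100a11), against 29.7%. Under an added limit, an absolute log2 fold change of 1 or more, Anxa2 alone was called, against 5.68% of genes. Anxa2 is the target of the hairpin, so its place among the lower members follows from the design, here and after OGD/R. The median log2 fold change of the members was 0.04, and 0.05 without Anxa2, beside 0.00 over all genes tested. The share of members that were higher was thus near the share of all genes, and the gains of Anxa4 and Anxa6 were 1.52-fold and 1.39-fold beside the 4.25-fold lower Anxa2.

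After OGD/R higher levels in the shAnxa2 line were called for 1 member (Anxa7), against 33.8% of all genes, and lower levels for 7 (Anxa1, Anxa2, Anxa3, Anxa4, Anxa5, Anxa6 and S100a11), against 34.2%. With the added limit on the log2 fold change 2 were called (Anxa2 and Anxa6), against 10.1%. The median log2 fold change was -0.71 over the members and -0.64 without Anxa2, beside 0.00 over all genes.

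**Figure D3:**
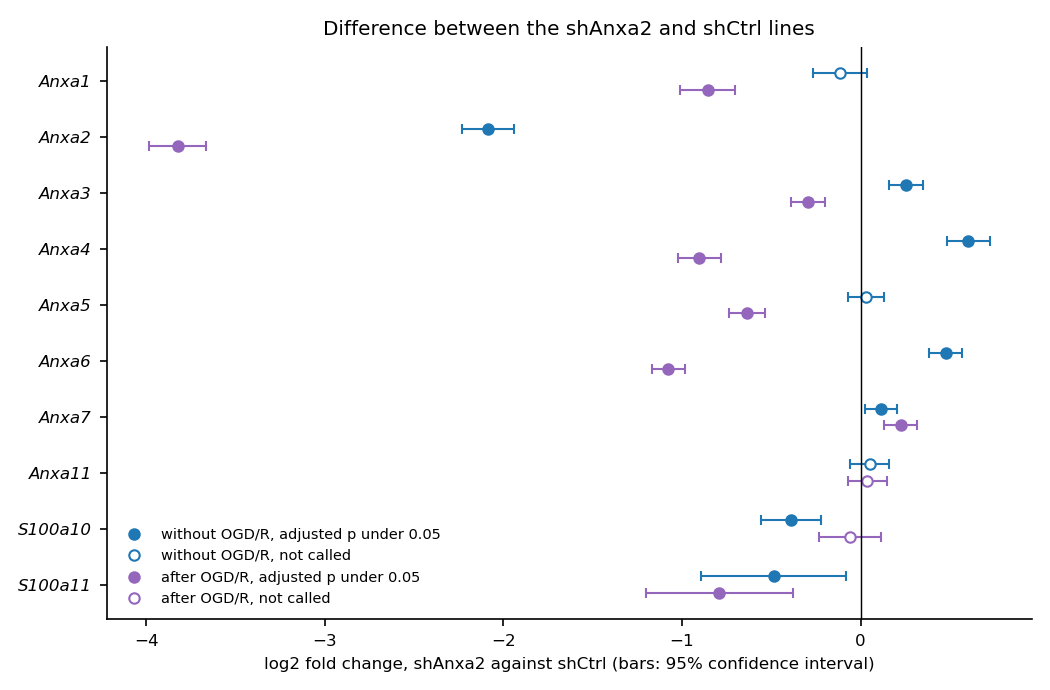
Log2 fold change of each member in the shAnxa2 line against the shCtrl line (horizontal axis), untreated (blue) and after OGD/R (purple), with 95% confidence intervals, filled where the adjusted p was under 0.05. Anxa4 and Anxa6 lie right of 0 untreated, at 0.60 and 0.48, and left of 0 after OGD/R, at -0.90 and -1.08, and Anxa11 lies at 0.05 and 0.04.

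The gains and the loss were set on 1 scale. Levels per kilobase of exon (joined as above) were summed over the 8 annexins in each library. Other lengths would change the sums and the order. In untreated shCtrl cells the order per kilobase was Anxa5 at 147 ± 5 CPM per kb (SD, n = 3), Anxa3 at 47.9 ± 1.6, Anxa2 at 46.0 ± 1.7, Anxa6 at 35.1 ± 0.5, Anxa4 at 24.3 ± 0.5, Anxa7 at 23.7 ± 0.3, Anxa11 at 16.1 ± 0.6 and Anxa1 at 11.3 ± 0.7. The SD ranges of Anxa3 and Anxa2 overlapped, as did those of Anxa4 and Anxa7. Without treatment, the sum of the other 7 annexins was 305 ± 7 CPM per kb in the shCtrl line and 346 ± 6 in the shAnxa2 line. That difference of 40.3 CPM per kb stood beside a difference of -35.2 for Anxa2, and the sum of all 8 was 352 ± 8 in shCtrl-CTRL and 357 ± 6 in shAnxa2-CTRL, with overlapping libraries.

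After OGD/R the sums diverged. The other 7 annexins summed to 415 ± 3 CPM per kb in the shCtrl line and 277 ± 7 in the shAnxa2 line, a difference of -138 beside -69.5 for Anxa2, and all 8 to 490.0 ± 4.5 and 283 ± 7. Anxa2 made up 13.1% of the annexin sum in shCtrl-CTRL, 15.3% in shCtrl-OGDR, 3.03% in shAnxa2-CTRL and 1.86% in shAnxa2-OGDR. Near equal sums in the untreated lines are a description of RNA, with no test, dominated by Anxa5 and resting on these joined lengths. They do not show that one annexin took the place of another.

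**Figure D4:**
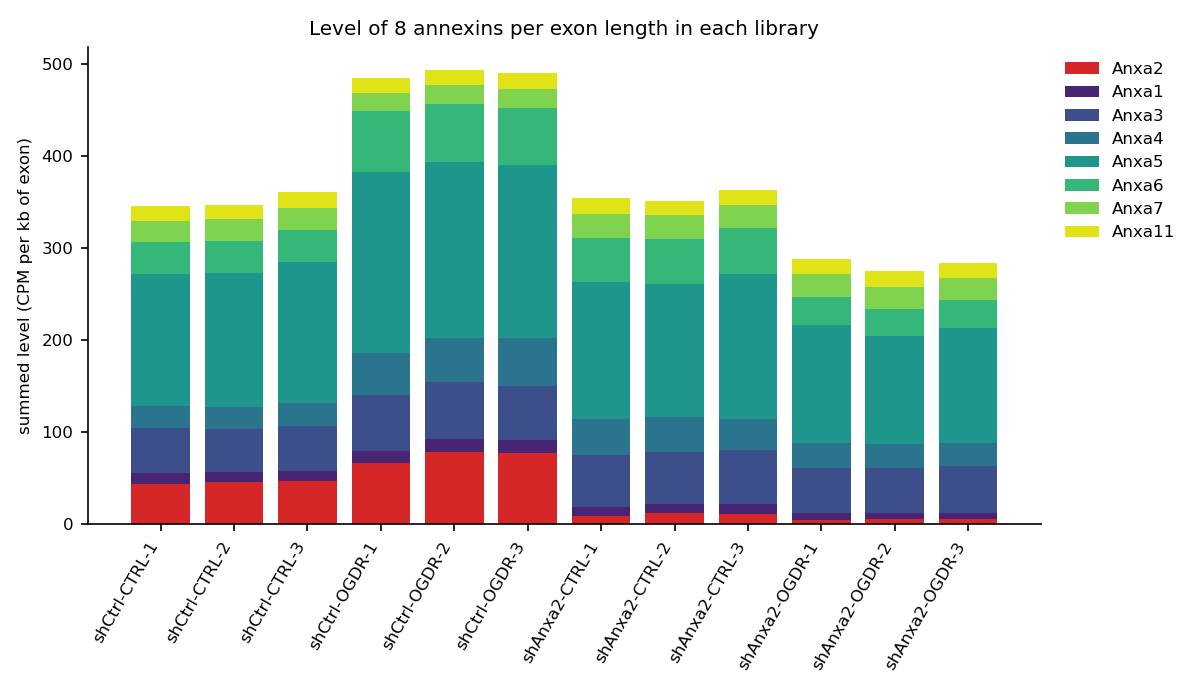
Summed level of the 8 annexins in each of the 12 libraries (stacked bars, vertical axis in CPM per kb of exon, from 0), with Anxa2 in red at the base. The bars stand at 346 to 361 in shCtrl-CTRL, 352 to 364 in shAnxa2-CTRL, 485 to 494 in shCtrl-OGDR and 275 to 288 in shAnxa2-OGDR.

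The effect of OGD/R in the shCtrl line was an increase of 6 members (Anxa1 to Anxa6), against 32.4% of all genes, and a decrease of 2 (Anxa7 and S100a10), against 31% of all genes. None passed the added limit of 1 on the log2 fold change in the main edgeR fit, at any p, against 6.73% of genes. Anxa4 was just short of it there at 0.997, and over the alternatives it lay on both sides of the limit (0.940 to 1.05). The median was 0.29 over the members and 0.00 over all genes. In the shAnxa2 line no member was higher after OGD/R, against 28.2%, and 6 were lower (again Anxa1 to Anxa6), against 26.8%. Anxa2 alone passed the added limit, against 3.54%, and the median was -0.25 over the members. For the absence of higher members in the shAnxa2 line, limma-voom and DESeq2 gave 0 as well, and by unadjusted p under 0.05 edgeR gave 0.

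The same 6 annexins thus rose in 1 line and fell in the other. A called change in opposite directions was found for 6 of the 10 members, and for 5165 of the 11626 genes tested (44.4%), of which 2555 (22% of genes tested) rose in the shCtrl line and fell in the shAnxa2 line as these 6 did. The difference between the lines' changes was called as lower for 6 members, against 35.1% of genes, and as higher for S100a10 alone, against 34.9%, and with the added limit for 3 (Anxa2, Anxa4 and Anxa6), against 21.5%. It was -1.55 ± 0.06 for Anxa6 (edgeR adjusted p = 2.48e-16), -1.51 ± 0.08 for Anxa4 (5.98e-14), -0.74 ± 0.10 for Anxa1 (9.04e-07), -0.67 ± 0.07 for Anxa5 (6.44e-09) and -0.55 ± 0.06 for Anxa3 (5.03e-08). A called change in opposite directions was thus shared with 44.4% of the genes tested. In the direction of these 6 annexins the share was 22% of genes, beside 60% of the members.

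**Figure D5:**
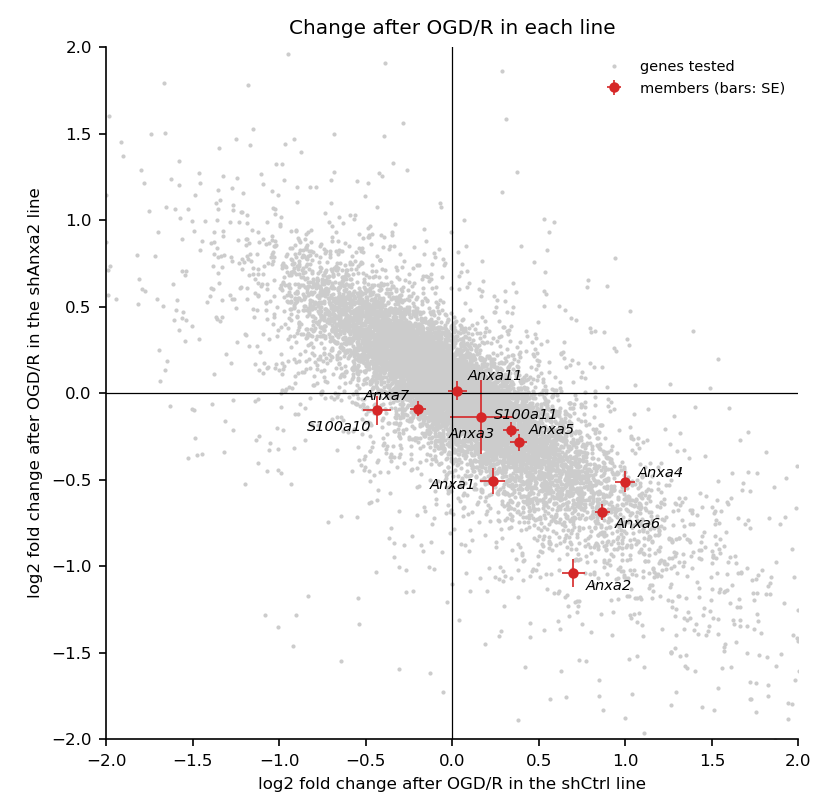
Log2 fold change after OGD/R in the shAnxa2 line (vertical axis) against that in the shCtrl line (horizontal axis) for the 10 members (red, bars are SE) and all genes tested (grey, 136 of them outside the axes). Anxa1 to Anxa6 lie right of and below 0, among the grey points, with Anxa2 at 0.70 and -1.04.

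Across the lines, the groups nearest to each other were also compared to order the levels. Between shAnxa2-CTRL and shCtrl-OGDR 7 members differed, against 44.1% of genes, with Anxa7 higher in shAnxa2-CTRL and Anxa1, Anxa2, Anxa4, Anxa5, Anxa6 and S100a11 lower. Between shAnxa2-OGDR and shCtrl-CTRL 6 differed, against 39.9%, all lower in shAnxa2-OGDR: Anxa1, Anxa2, Anxa5, Anxa6, S100a10 and S100a11.

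Of the remaining annexins, Anxa8, Anxa9, Anxa10 and Anxa13, 2 of 4 passed the limit on low counts. Anxa9, which was singled out after its values were seen, was 7.69 ± 0.49 CPM in shCtrl-CTRL and 11.8 ± 1.3 CPM in shAnxa2-CTRL (log2 fold change 0.61 ± 0.11, edgeR adjusted p = 3.2e-05), and no other of the 4 simple comparisons of these genes was called in either direction. Of 15 other genes with S100 in their symbol 4 were tested: S100a1, S100a4, S100a13 and S100pbp. The last encodes a protein that binds an S100 protein and is not itself an S100 gene. Of these 4, 3 were higher and 0 lower in the untreated shAnxa2 line (29.5% and 29.7% of all genes), and 2 higher and 2 lower after OGD/R (33.8% and 34.2%). With OGD/R 3 were higher and 0 lower in the shCtrl line (32.4% and 31%), and 0 higher and 2 lower in the shAnxa2 line (28.2% and 26.8%). With 4 genes tested, these counts are a description, and S100pbp was among the called genes in each comparison. S100a1, a calcium-binding protein best known from muscle, was at 50.1 ± 0.7 CPM in shCtrl-CTRL, 119 ± 10 in shCtrl-OGDR, 117 ± 18 in shAnxa2-CTRL and 50.8 ± 4.7 in shAnxa2-OGDR. Its log2 fold change between the lines was 1.22 ± 0.08 untreated (edgeR adjusted p = 8.02e-12) and -1.22 ± 0.08 after OGD/R (edgeR adjusted p = 3.58e-12).

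Of 31 symbols listed for annexin binding partners and receptors, 30 were in the count table and 19 were tested. Hltf and Smarca3 in this list are 2 symbols of 1 gene. In the shAnxa2 line 5 were higher and 9 lower untreated (29.5% and 29.7% of all genes), and 3 higher and 12 lower after OGD/R (33.8% and 34.2%). With OGD/R 9 rose and 3 fell in the shCtrl line (32.4% and 31% of all genes), and 2 rose and 8 fell in the shAnxa2 line (28.2% and 26.8%). The median log2 fold change of the list was -0.12 between untreated lines and -0.37 after OGD/R, beside 0.00 over all genes. Ahnak, the giant scaffold protein that binds the complex of annexin A2 and S100A10, was at 210.5 ± 23.6 CPM in shCtrl-CTRL, 348.5 ± 38.8 in shCtrl-OGDR, 150 ± 3 in shAnxa2-CTRL and 117.5 ± 8.5 in shAnxa2-OGDR. The group means of Ahnak fell in the order of those of Anxa2, as did those of Tsg101, Rab14, Hltf and Ptprj in this list. Ahnak was lower in the shAnxa2 line both untreated (log2 fold change -0.49 ± 0.07, edgeR adjusted p = 3.95e-06) and after OGD/R (-1.57 ± 0.07, edgeR adjusted p = 6.56e-15). Capn2, a catalytic subunit of the calcium-dependent protease calpain, was at 3.69 ± 0.30, 4.73 ± 0.93, 0.940 ± 0.372 and 1.48 ± 0.26 CPM in the same order of groups, and was lower in the shAnxa2 line untreated (-1.94 ± 0.24, edgeR adjusted p = 2.87e-07) and after OGD/R (-1.66 ± 0.22, edgeR adjusted p = 4e-07). Src, the tyrosine kinase that phosphorylates annexin A2, was at 14.9 ± 0.4, 31.4 ± 2.9, 42.2 ± 2.4 and 26.2 ± 1.2 CPM, higher in the shAnxa2 line untreated (1.4995 ± 0.0765 in log2, edgeR adjusted p = 4.93e-14) and lower after OGD/R (-0.26 ± 0.07, edgeR adjusted p = 0.00394).

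The genes whose pattern over the 12 libraries was most like that of Anxa2, by root mean square difference of log2(CPM + 0.1) centred per gene, were Gm5431 (0.485), Ets1 (0.523), Arap2 (0.527), Slc47a1 (0.533) and Maf (0.556). Maf, a transcription factor of macrophages and microglia, was at 42.2 ± 1.7 CPM in shCtrl-CTRL, 61.4 ± 4.1 in shCtrl-OGDR, 14.2 ± 0.7 in shAnxa2-CTRL and 11.4 ± 1.3 in shAnxa2-OGDR. Most like S100a10 were Actr3 (0.092), Pak2 (0.105), Smim11 (0.109), Clns1a (0.113) and Sez6l2 (0.114). Actr3, a subunit of the actin-nucleating Arp2/3 complex, was at 515 ± 14 CPM in shCtrl-CTRL, 401.5 ± 24.1 in shCtrl-OGDR, 375 ± 9 in shAnxa2-CTRL and 372 ± 21 in shAnxa2-OGDR. Gm5431 and Ets1 lay near the limit of 0.5 CPM in the shAnxa2 line, with means of 0.412 and 0.515 CPM untreated and 0.335 and 0.311 CPM after OGD/R. With a pseudocount of 1, 3 of the 5 genes for Anxa2 and 4 of the 5 for S100a10 were named again. Gm5431 and Ets1 were then replaced by C1qb and Asb11, and Maf came first. No gene of one list was in the other, and the likeness is a description with no test.

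Promoter windows were available for 7 of the 10 members in the RefSeq sequences of GRCm38.p6, of which the 250 bases before the start are shown for 3: Anxa2, the targeted gene, Anxa4, the member with the largest increase after OGD/R in the shCtrl line, and Anxa11, for which no comparison was called. Anxa4 had a window at each of 2 starts, of which the first listed is shown, and the window of the other start held no match to any of the motifs. Capitals mark matches, on either strand, to 5 motifs that were chosen after the windows had been seen. The site bound by AP-1 was searched as TGAGTCA. For NF-κB the letters searched were GGACTTTCC, without the outermost base of the usual site. The core of hypoxia response elements was searched as ACGTG, which also matches inside an E-box. A GC box was taken to be GGGCGG, and the letters of a TATA box were TATAAA.
Anxa2 (chr9:69453433-69453682, plus strand): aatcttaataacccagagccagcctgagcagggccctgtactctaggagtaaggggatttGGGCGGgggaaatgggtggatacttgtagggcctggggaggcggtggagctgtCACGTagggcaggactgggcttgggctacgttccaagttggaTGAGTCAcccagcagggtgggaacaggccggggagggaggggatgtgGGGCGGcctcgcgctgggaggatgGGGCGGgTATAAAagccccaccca
Anxa4 (chr6:86793585-86793834, minus strand): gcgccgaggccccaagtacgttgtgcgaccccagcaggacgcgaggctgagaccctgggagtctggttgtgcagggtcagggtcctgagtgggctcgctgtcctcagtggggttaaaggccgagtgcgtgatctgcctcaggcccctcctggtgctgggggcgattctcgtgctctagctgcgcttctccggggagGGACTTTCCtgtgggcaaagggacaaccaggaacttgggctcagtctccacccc
Anxa11 (chr14:25841905-25842154, plus strand): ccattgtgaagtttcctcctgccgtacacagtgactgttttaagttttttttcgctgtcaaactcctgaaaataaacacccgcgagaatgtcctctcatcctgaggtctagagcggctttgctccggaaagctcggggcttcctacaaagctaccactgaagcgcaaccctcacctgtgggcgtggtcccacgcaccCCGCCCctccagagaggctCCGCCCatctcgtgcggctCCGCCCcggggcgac

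The Anxa2 window held 1 match to TGAGTCA, 1 to ACGTG on the minus strand, 3 to GGGCGG and 1 to TATAAA, which lay 17 to 12 bases before the start. The Anxa4 window held 1 match to GGACTTTCC, 54 to 46 bases before the start, and the Anxa11 window 3 matches to GGGCGG on the minus strand. No other member with a window held GGACTTTCC, including Anxa1, Anxa2 and Anxa5, which also rose with OGD/R in the shCtrl line. S100a11, not called for OGD/R in either line, held 2 matches to TGAGTCA. Among the 32851 windows of this length, 4.46% held TGAGTCA, 0.283% GGACTTTCC, 16.6% ACGTG, 32.7% GGGCGG and 12.4% TATAAA. No match overlapped another in these 3 windows, and a match is a description of the letters, not of a bound factor.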

How the data were processed

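RNA of BV2 cells was sequenced in 12 libraries from NEBNext Ultra RNA kits. The deposited table held raw read counts per gene made by the authors, with HISAT2 2.0.4 and the mm39 build per the submitters' processing notes; the study's methods name TopHat and HTSeq for hippocampal RNA, and the counting tool and strand setting for these libraries are not given in the sources used here. A further 12 per-sample columns of normalized values were not used, nor were gene coordinates converted between builds. The members and lists were chosen with earlier results of these data known.

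Genes with at least 0.5 CPM in 3 libraries (11626) were fitted with edgeR 4.0.16 (R 4.3.3; TMM factors, quasi-likelihood test, 1 model of 4 group means over 12 libraries), with Benjamini-Hochberg adjustment over all genes tested and a call at adjusted p under 0.05. The interaction was tested as a contrast. SE is the absolute log2 fold change over the root of F. CPM values use TMM library sizes. Exon lengths, the target stretch and shared 50-base windows came from GENCODE M21 (GRCm38), promoters from RefSeq (GRCm38.p6). An exon length joins the exons of all annotated transcripts of a gene. Genes of the related lists were named where adjusted p was under 0.05 and the absolute log2 fold change at least 1 in any simple comparison, and the 5 genes most alike to Anxa2 and to S100a10 were named. Alternatives were DESeq2 1.42.0, limma 3.58.1 (voom), RLE factors, no filter, at least 1 CPM, a replicate block, only the 2 groups compared, each library left out, and an added log2 fold change limit of 1. The fit was tested on simulated data. Totals of 19521877 to 27288843 counts gave members other than S100a11 357 to 8925 counts per library.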

Additional observations from a re-analysis of the deposited data

Results flagged for a closer look

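For 7 of the 10 members the change after OGD/R differed between the shCtrl and shAnxa2 lines by the test of the interaction of line and treatment (edgeR, adjusted p under 0.05). In either direction together, 8136 of the 11626 genes tested were called, a share like that of the members. By direction the shares differed: 6 members (60%) were called as lower, against 35.1% of all genes tested, and 1 (10%) as higher, against 34.9%. The log2 difference, shAnxa2 minus shCtrl, was -1.74 for Anxa2, -1.55 for Anxa6, -1.51 for Anxa4, -0.74 for Anxa1, -0.67 for Anxa5, -0.55 for Anxa3 and 0.33 for S100a10. With OGD/R the first 6 rose where the control hairpin was expressed and fell under the Anxa2 hairpin. For S100a10 the decrease in the shCtrl line was larger than that in the shAnxa2 line, and the call was lost without the first shCtrl-OGDR library. The part that the arrangement of the libraries as a whole plays in these differences was not tested.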

How the results depend on the processing

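Over the 5 comparisons, 700 values of single members were recomputed under other settings, of which 679 kept their direction and their side of the threshold, and 140 of 150 counts of called members stayed within 1.5 times. With the added limit of 1 on the log2 fold change, members called as higher and lower fell to 0 and 1 between untreated lines, 0 and 2 between lines after OGD/R, 0 and 0 for OGD/R in the shCtrl line and 0 and 3 for the interaction, and 1 was lower for OGD/R in the shAnxa2 line. Leaving out each library in turn, members higher for the interaction ranged from 0 to 1. The direction of values that were not called turned in some of these fits: Anxa5 between untreated lines (-0.0052 to 0.0619), S100a10 between lines after OGD/R (-0.1616 to 0.0061), Anxa11 for OGD/R in the shCtrl line (-0.0031 to 0.0641), in the shAnxa2 line (-0.0210 to 0.0380) and for the interaction (-0.0564 to 0.0171), and S100a10 (-0.1625 to 0.0083) and S100a11 (-0.4410 to 0.0842) for OGD/R in the shAnxa2 line. With no filter on low counts, Anxa11 for OGD/R in the shAnxa2 line was -0.0163. The cause was not tested.

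The libraries of the groups share replicate numbers, but the deviations of libraries with the same number correlated by -0.0513 to 0.135 only, so that the numbers were not taken to pair them. With the replicate block the members called were the same in number, for example 4 higher and 3 lower between untreated lines, with Anxa2 at -2.09, and no call of a member changed. Counts of S100a11, 30 to 106 per library, limit its precision, with SEs of 0.18 to 0.28 in log2.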
